A study of Mus musculus with 3 samples.

Results

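The olfactory receptor genes of the mouse were followed in array comparative genomic hybridisation of 3 glioma neurosphere lines. The members are the autosomal probes that the array design names Olfr, the mouse symbol for olfactory receptors. Of 161460 autosomal probes, 78 carry such a name, and they stand for 66 genes. Neighbouring Olfr probes within 1 Mb of each other were joined, which gave 24 clusters. Of these, 9 hold a single probe, 10 hold 2 to 4 probes, and 5 hold at least 5 probes and 37 probes together. A further Olfr probe lies on X and was not used. The lines make up a single group, labelled as resistant to an inhibitor of CSF-1R, the receptor that macrophages and microglia need. They were grown as neurospheres, free-floating cultures of tumour cells, from resistant tumours, and taken at passages 2 to 3. DNA of each line, labelled with Cy5, was hybridised together with mouse liver DNA, labelled with Cy3, and no untreated or sensitive line was among the samples. Line 1 has an animal number of its own. Lines 2 and 3 share another animal number and the same liver label. Strain, genotype, age and the tumour model of the animals are not given in the labels.

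Olfactory receptors are G protein-coupled receptors of the sensory neurons of the nose, where each neuron expresses a single allele of a single receptor gene. They signal through the G protein subunit encoded by Gnal, adenylyl cyclase 3 and a cyclic nucleotide-gated channel. The genes form the largest gene family of the mouse, their coding region usually lies in a single exon, and they stand in tandem arrays on many chromosomes, where copies have been gained and lost between strains.

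The array samples this family thinly. RefSeq (GRCm38.p6) lists 1428 Olfr symbols, 1110 of them protein coding. All 66 Olfr names of the array matched a symbol, 63 as protein coding and 3 as pseudogene, and 60 of the 66 had a single probe. Of the 78 probes, 6 were printed as 5 spots on each array and 72 as a single spot. Positions are those of the design (mm9). Whether a probe lies in an exon, an intron or a UTR was not determined, since no annotation of that build was used.

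The following probe sequences are given 5′ to 3′ as deposited, because the results below turn on them. Capitals mark the longest run that the probe shares, on the same or the opposite strand, with a probe of another Olfr name. Olfr736 (chr14:51013181-51013240) and Olfr703 (chr7:113988690-113988744) are the lowest and the highest of the probes with 5 spots. Olfr536 (chr7:147690384-147690443) shares with Olfr703 the longest run of any pair, 13 bases on opposite strands. The 3 probes named Olfr1300-ps1 (chr2:111512721-111512780, chr2:111520458-111520517 and chr2:111529327-111529386, in this order) include the lowest member of all. Olfr110 (chr17:37635216-37635275) and Olfr129 (chr17:38196485-38196544) make up the lowest cluster. Olfr558 (chr7:109851492-109851551) has the highest gene mean, and Olfr183 (chr16:58996663-58996722) and Olfr1033 (chr2:85872518-85872577) met the rule for a difference between the animal numbers.
Olfr736: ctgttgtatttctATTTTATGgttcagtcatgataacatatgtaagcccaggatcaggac
Olfr703: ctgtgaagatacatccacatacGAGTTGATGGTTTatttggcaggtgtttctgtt
Olfr536: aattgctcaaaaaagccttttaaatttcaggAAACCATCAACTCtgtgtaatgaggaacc
Olfr1300-ps1: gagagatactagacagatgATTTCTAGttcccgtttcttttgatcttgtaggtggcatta
Olfr1300-ps1: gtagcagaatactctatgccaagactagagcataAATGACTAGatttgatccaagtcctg
Olfr1300-ps1: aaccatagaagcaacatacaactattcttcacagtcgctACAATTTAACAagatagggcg
Olfr110: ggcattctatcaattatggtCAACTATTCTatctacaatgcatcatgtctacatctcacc
Olfr129: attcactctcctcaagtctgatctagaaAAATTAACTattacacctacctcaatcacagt
Olfr558: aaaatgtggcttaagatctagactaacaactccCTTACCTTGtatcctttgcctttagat
Olfr183: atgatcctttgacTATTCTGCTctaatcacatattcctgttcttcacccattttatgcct
Olfr1033: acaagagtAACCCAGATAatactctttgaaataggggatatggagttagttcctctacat

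The values below are log2 ratios of the Cy5 over the Cy3 processed signal, centred on the autosomal median of each array. Values above 0 mean more signal from the line, values below 0 more from liver. If every cell went from 2 copies of a region to 3, the log2 ratio would be 0.58, and -1 if every cell kept 1 of 2 copies. All arrays shared 1 slide and the same dye orientation, so a probe's dye effect, shared by all arrays, and a copy number shared by all lines cannot be told apart. The number of arrays limits the precision, and the arrays give no spread beyond these 3 lines. limma in addition pools the spread over all features of a fit, so its p-values do not rest on a feature's own 3 values alone. Of the 78 Olfr probes, 74 were well above background in both channels on every array (94.9%, against 96.6% of the other autosomal probes).

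Olfr probes lay slightly lower in the lines than in liver. Lines 1, 2 and 3 had Olfr means of -0.12, -0.10 and -0.080. Negative values were found in 66.7% of the Olfr probes in line 1, 66.7% in line 2 and 64.1% in line 3, against 49.99% of the other autosomal probes in each line. The difference from the other 161382 autosomal probes was -0.12, -0.11 and -0.088 in lines 1, 2 and 3, a mean of -0.10 ± 0.015 (SD, n = 3). It was below 0 in 3 of 3 lines, but the exact sign flip test over lines (2-sided) gave p = 0.25, the smallest value that 3 lines allow (0.286 after Benjamini-Hochberg adjustment over 8 such comparisons). The shift is small beside the spread of single Olfr probes within an array, whose SD was 0.36, 0.26 and 0.22 in lines 1, 2 and 3.

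The low level was shared by the DNA between the Olfr probes. Between the first and the last Olfr probe of a cluster lie 821 probes with another name or none, here called the probes inside the cluster spans, and this comparison was added after the data were seen. They differed from the rest of the autosomes by -0.074, -0.13 and -0.10 in lines 1, 2 and 3, a mean of -0.10 ± 0.026 (SD, n = 3; exact sign flip p = 0.25, 2-sided). Olfr probes differed from them by -0.045, 0.018 and 0.012, a mean of -0.0049 ± 0.034, with different signs in the 3 lines (exact sign flip p = 1). Among the probes inside the spans, the 703 with no gene name differed from unnamed probes elsewhere by -0.11 ± 0.032 (SD, n = 3), below 0 in 3 of 3 lines.

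Pooled over the large spans, the level rose with distance from the clusters, though not around each span. Around the 10 spans that hold at least 20 such probes, the 812 probes inside had a mean of -0.096 ± 0.022 over lines. Probes up to 250 kb outside the outer Olfr probes had a mean of -0.063 ± 0.024, and those at 250 to 500 kb a mean of -0.028 ± 0.014. Both were below 0 in 3 of 3 lines. From 500 to 750 kb the mean was -0.0054 ± 0.018 and from 750 to 1000 kb it was -0.0051 ± 0.0067, each below 0 in 2 of 3 lines. Probe base composition moved slightly with this, with a mean of 35.8% G and C in the Olfr probes, 36.0% inside the spans, 36.6% within 1 Mb of the clusters and 36.8% in the other autosomal probes. Against probes of the same number of G and C bases, the difference was -0.097 for the Olfr probes and -0.096 for the probes inside the spans. The base composition of the longer surroundings was not tested. Around Olfr110 to Olfr129 the flanks within 1 Mb had a mean of -0.105, below the -0.080 of the probes inside, and were lower in each line. Around Olfr1164 to Olfr1240 the flanks had a mean of -0.118 and the probes inside one of -0.105. In the other large spans the mean inside lay below that of the flanks. The edges of a cluster are those of the array's probes, which stand for 66 of 1428 Olfr symbols. Flanks can thus hold receptor genes without a probe, and how many was not counted. On chromosome 2, Olfr995 to Olfr1080 ends at 86397175 and Olfr1164 to Olfr1240 starts at 87933081, so their flanks overlap.

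**Figure D1:**
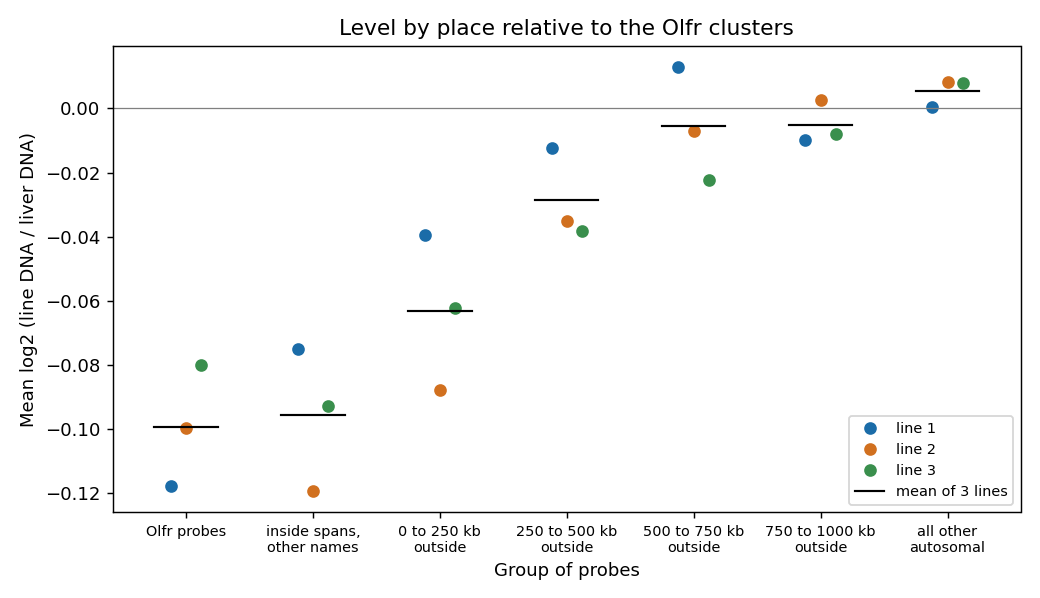
Mean log2 ratio (vertical axis) of the 78 Olfr probes, of probes with other names or none inside the 10 large cluster spans, of probes at 4 distances outside them and of all other autosomal probes, with a point for each line and a bar for the mean of 3 lines. Olfr probes and the probes inside the spans sit near -0.10, and the means approach 0 from 500 kb outward.

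Each of the 10 large spans, taken whole with its Olfr probes, lay below 0 in all 3 lines, as did 31.1% of the 2396 spans and 1 Mb autosomal bins together. limma called 10 of 10 below 0 at an adjusted p under 0.05, where 40.4% of the spans and bins were called, 22.2% below and 18.2% above. Without line 2 it called 6 of the 10, without line 3 it called 7, and with lines 2 and 3, which share an animal number, averaged as 1 animal it called 8. The span means ran from -0.16 to -0.060 with a median of -0.10, while the 2386 bins had a median of 0.00015 and an SD of 0.068. The spans thus lie in the lower part of the bins and not outside them.

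The lowest span was Olfr695 to Olfr710 on chromosome 7, at -0.17, -0.17 and -0.15 in lines 1, 2 and 3 (mean -0.16, limma adjusted p = 3.58e-08), with 1.17% of the bins below it. Olfr348 to Olfr367-ps on chromosome 2 followed at -0.070, -0.19 and -0.19 (mean -0.15, limma adjusted p = 8.52e-07), and Olfr722 to Olfr746 on chromosome 14 at -0.092, -0.16 and -0.15 (mean -0.14, limma adjusted p = 4.2e-06). In the last 2, line 1 lay nearest to 0. The highest were Olfr856-ps1 to Olfr18 on chromosome 9 and Olfr20 to Olfr59 on chromosome 11, both with a mean of -0.060 (limma adjusted p = 0.0429 and 0.0438), and 21.4% and 21.5% of the bins lay below them. In the chromosome 7 span Olfr695 to Olfr710, the 4 Olfr probes themselves had a mean of 0.050 while the 20 probes between them had one of -0.21, so the low level there was not that of the Olfr probes. The p-values of the spans rest mostly on a spread pooled over all spans and bins. limma gave a standard error of 0.025 both to Olfr695 to Olfr710 and to Olfr348 to Olfr367-ps, though the lines of the latter lay further apart. The spans named here were picked by their values.

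**Figure D2:**
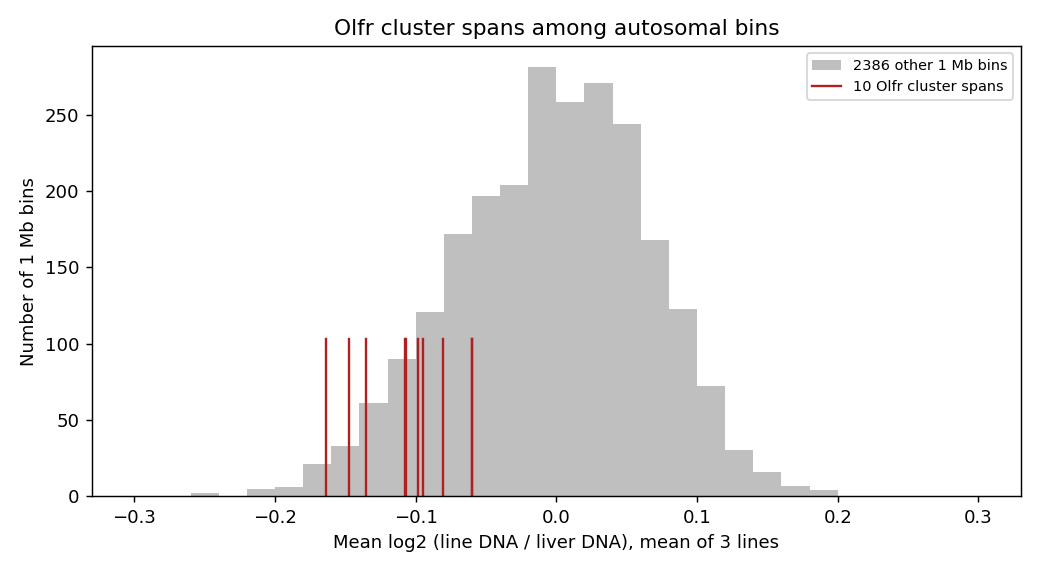
Number of 1 Mb autosomal bins (vertical axis) by mean log2 ratio over the 3 lines (horizontal axis), with a red line for each of the 10 Olfr cluster spans; the height of the red lines has no meaning. All 10 spans lie below 0, between -0.16 and -0.060, within the range of the bins.

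Taken by their Olfr probes alone, the 24 clusters differed among themselves, and 11 lay below 0 in all 3 lines and 4 above. Of single autosomal probes, 34% lay below 0 in all lines and 33.4% above. Set against the probes within 1 Mb on either side, the Olfr probes of a cluster differed by -0.088, -0.089 and -0.053 on average in lines 1, 2 and 3, a mean of -0.077 ± 0.021 (SD, n = 3; exact sign flip p = 0.25, 2-sided). These flanks can likewise hold receptor genes that have no probe. In 11 clusters the Olfr probes were below their flanks in all 3 lines, and in 3 they were above. How often other sets of so few probes lie to 1 side of their flanks was not counted. The shares of 34% and 33.4% are for single probes against 0, so the 11 and 3 have no background here. For the 9 clusters of a single probe the mean difference was -0.047 ± 0.041, with only -0.0012 in line 3.

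Of the 5 clusters with at least 5 Olfr probes, limma called 2, both below 0, in a fit where 39.9% of all regions were called, 22% below and 17.9% above. Olfr147 to Olfr976 on chromosome 9 (chr9:38210112-39761886, 9 probes) was at -0.33, -0.20 and -0.16 in lines 1, 2 and 3 (mean -0.23, limma adjusted p = 2.99e-11). Its flanks had a mean of -0.025, and 7 of its 9 probes were below 0 in all lines. Olfr995 to Olfr1080 on chromosome 2 (chr2:85278362-86397175, 5 probes) was at -0.28, -0.19 and -0.13 (mean -0.20, limma adjusted p = 3.2e-09), with flanks at -0.038. In both clusters line 1 was lowest and line 3 highest. The standard errors behind these p-values come mostly from the spread pooled over 2393 regions: limma gave 0.025 to 0.026 to each of the 5 clusters, while their SD over the 3 lines ran from 0.018 to 0.11. These regions are nearly all 1 Mb bins that hold most of the 161460 autosomal probes, so most are means of many more probes than a cluster has. Neither the pooled spread nor the share called is one for means of so few probes. Within Olfr147 to Olfr976, probe means ran from -0.46 to 0.028. With probes not well above background left out, the chromosome 2 cluster fell under 5 probes and was no longer among those tested.

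The largest cluster, Olfr547 to Olfr658 on chromosome 7 (chr7:109683833-111791508, 10 probes), holds class I receptors, the kind that mammals share with fish, on both sides of the beta-globin genes. Its Olfr probes were at 0.073, -0.078 and -0.082 in lines 1, 2 and 3 (mean -0.029, limma adjusted p = 0.387). Line 1 stood apart in sign, and without it limma called the cluster (mean -0.080, adjusted p = 0.0237). Within the cluster, probe means ran from -0.47 for Olfr623 to 0.38 for Olfr558. The embryonic globin genes in it were at 0.29, 0.052 and -0.18 for Hbb-bh1 and at 0.078, -0.14 and -0.092 for Hbb-y, with no common sign.

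The other large clusters gave no call and no settled direction. Olfr856-ps1 to Olfr18 on chromosome 9 (6 probes) was at 0.00028, -0.016 and -0.036 (mean -0.017, limma adjusted p = 0.612). Its mean turned to 0.040 after normexp background correction, to 0.0033 after loess dye normalization and to 0.040 in the authors' value table, while with probe medians it was -0.080 (limma adjusted p = 0.022). Olfr56 on chromosome 11 is a cluster of 7 probes that all carry 1 name over 50007 bases, whereas RefSeq gives the gene a length of 1215 bases. A gene of that length would not reach over all of these probes. Where they lie relative to the gene was not determined. The cluster's values differed in sign between the lines. The cluster was at -0.083, 0.12 and 0.063 in lines 1, 2 and 3 (mean 0.034, limma adjusted p = 0.309). Its mean lay below 0 under normexp, loess, the authors' value table, probe medians and without line 2, and without line 1 it was called above 0 (mean 0.093, limma adjusted p = 0.00758).

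The extremes were found among the clusters of few probes, which are given here as values only because they were chosen after their values were seen. Olfr110 and Olfr129 on chromosome 17 belong to the receptors linked to the major histocompatibility complex, and their 2 probes averaged -0.57, -0.48 and -0.35 in lines 1, 2 and 3. The 51 probes between them averaged -0.085, -0.091 and -0.063, and the flanks -0.13, -0.096 and -0.091. Olfr722 to Olfr746 on chromosome 14 averaged -0.37, -0.36 and -0.28, and all 4 of its Olfr probes were below 0 in every line, with flanks at -0.0065. The highest was the lone probe of Olfr70, given with the genes below. Olfr288 to Olfr286 on chromosome 15 averaged 0.028, 0.38 and 0.23 over 3 probes. Its flanks were at 0.015, 0.16 and 0.13 in the same order, so line 1 was nearest to 0 in the cluster and around it.

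**Figure D3:**
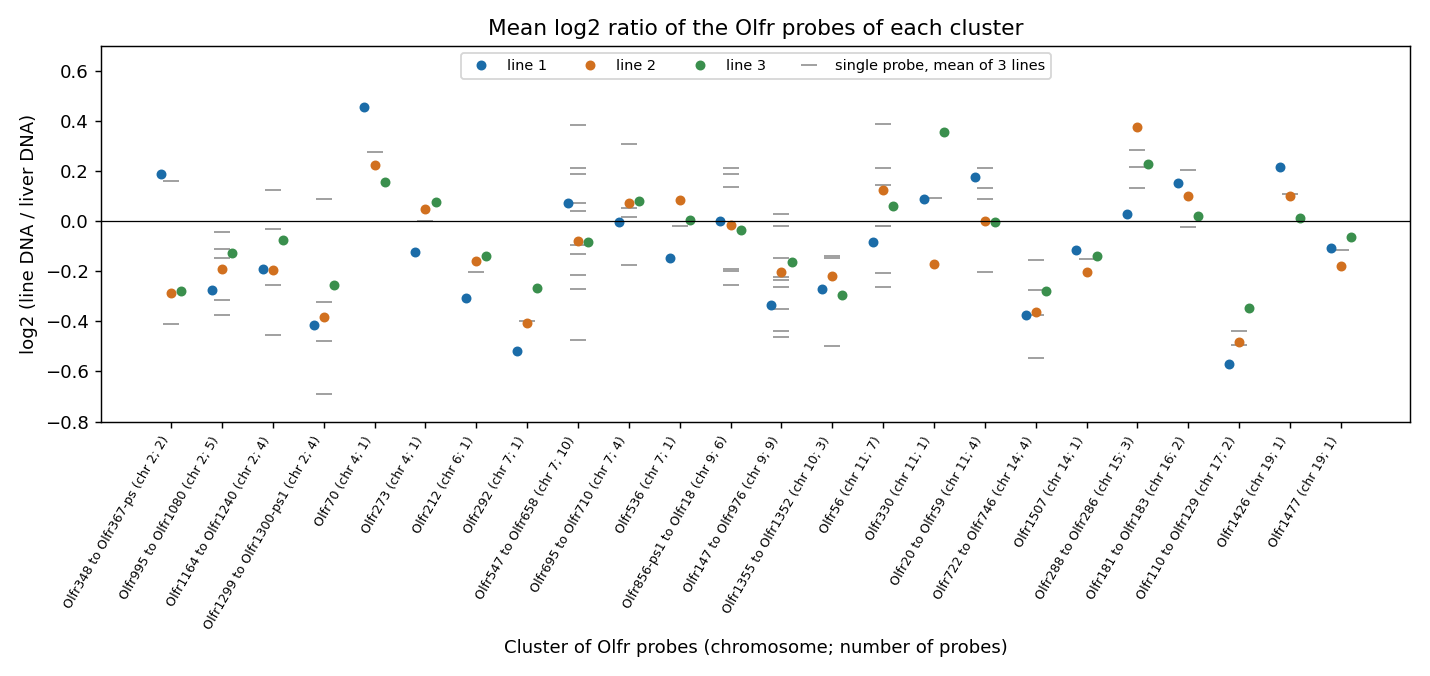
Log2 ratio (vertical axis) of the 24 clusters of Olfr probes in genome order, with a coloured point for the mean of a cluster's Olfr probes in each line and a grey dash for each probe's mean over the 3 lines. The cluster Olfr110 to Olfr129 is lowest, and the probes of Olfr547 to Olfr658 range from -0.47 to 0.38.

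Of the 78 Olfr probes, limma called 26 at an adjusted p under 0.05, 22 below and 4 above 0, where 33.7% of all autosomal probes were called, 17.3% below and 16.4% above. The share called was thus close to the background, and the split lay to the low side. With an unadjusted p under 0.05 there were 39, where 47.5% of all autosomal probes had one. Below 0 in all 3 lines lay 37 Olfr probes and above 0 in all lines 12, with 29 mixed, against 34% and 33.4% of all autosomal probes. The calls rested on few arrays: limma called 11 without line 2, 19 without line 3 and 39 without line 1, with 17.8%, 23.04% and 47.0% of all autosomal probes called in the same fits. The split also moved with the scaling, from 22 below and 4 above to 20 and 8 after normexp, where 11.5% of all autosomal probes were called below and 15.04% above. It was 24 and 1 after loess (11.5% and 11.4%), and 15 and 1 of the 74 Olfr probes in the authors' value table (10.8% and 10.5%).

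Averaged by gene name, 25 of the 66 Olfr genes passed limma, 20 below and 5 above 0, where 23% of 20325 gene names passed, 8.91% below and 14.1% above. These shares are not alike in probe number. Of the 66 Olfr genes, 60 had a single probe, while the other gene names hold 108729 probes together, so many are means of several. In the fit of single probes limma called 26 of 78 Olfr probes, where 33.7% of all autosomal probes were called. The part that probe number has in the gene counts was not tested. The median of the Olfr genes was -0.12 and that of all gene names 0.023. Among those called below 0, Olfr736 was lowest, at -0.59, -0.49 and -0.56 in lines 1, 2 and 3 (mean -0.55 ± 0.050, SD, n = 3; limma adjusted p = 0.0148). Olfr1353 on chromosome 10 was at -0.53, -0.46 and -0.51 (limma adjusted p = 0.0148), but at a mean of -0.13 after loess (limma adjusted p = 0.162) and -0.16 after normexp (0.148). Olfr129 was at -0.55, -0.52 and -0.42 (limma adjusted p = 0.0148). After normexp the means of Olfr736 and Olfr129 were -0.34 and -0.29, and that of Olfr129 was -0.33 in the authors' value table, still called in each. Each of these genes has a single probe, and in each the 3 lines lay close together.

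Olfr623, in the class I cluster, was at -0.54, -0.56 and -0.33 (limma adjusted p = 0.0155). Olfr1240 on chromosome 2 was at -0.58, -0.40 and -0.38 (limma adjusted p = 0.0155), and at a mean of -0.20 after normexp and -0.19 in the authors' value table, where it was not called, and -0.25 after loess, where it was. These 5 genes came from 5 clusters, since the rule for naming took at most 1 gene from each.

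The 5 genes called above 0 also came from 5 clusters. Olfr558, a class I receptor that responds to short fatty acids, was at 0.60, 0.32 and 0.24 in lines 1, 2 and 3 (mean 0.38 ± 0.19, SD, n = 3; limma adjusted p = 0.0293). Olfr703 on chromosome 7 was at 0.33, 0.30 and 0.29 (mean 0.31 ± 0.021; limma adjusted p = 0.017), the closest set of lines among them, and at a mean of 0.17 after normexp (limma adjusted p = 0.0676) and 0.20 after loess (0.0434). Olfr70 on chromosome 4 was at 0.45, 0.22 and 0.16 (limma adjusted p = 0.0449). Line 1 stood well above the other lines for Olfr558 and Olfr70. Olfr287 on chromosome 15 was at 0.14, 0.28 and 0.24 and Olfr181 on chromosome 16 at 0.26, 0.25 and 0.11 (limma adjusted p = 0.0393 and 0.0481). In the fit of single probes, which have their own estimate of the spread, both missed the threshold (limma adjusted p = 0.0579 and 0.0697).

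Of 11 receptors with a known ligand or a long record of study, 3 had a probe. Besides Olfr558 these were Olfr78 and Olfr1507. Olfr78, a receptor for short-chain fatty acids that is also expressed in kidney vessels and the carotid body, was at -0.42, -0.11 and -0.28 in lines 1, 2 and 3 (limma adjusted p = 0.0475), below 0 where its neighbour Olfr558 was above. Olfr1507, known as MOR28 and much used in studies of receptor choice, was at -0.11, -0.20 and -0.14 (limma adjusted p = 0.0725). Olfr558, Olfr70, Olfr287 and Olfr78 were not called after loess or in the authors' value table, nor Olfr181 after loess (limma adjusted p from 0.0512 to 0.129), nor Olfr287 after normexp (mean 0.14, 0.166). Olfr1507 passed below 0 under normexp, loess, the authors' value table and without line 1 (limma adjusted p from 0.0246 to 0.0385). The 11 Olfr genes named here that passed in the gene fit all missed the threshold without line 2 (limma adjusted p from 0.0869 to 0.237), without line 3 (0.0721 to 0.168) and with lines 2 and 3 averaged as 1 animal (0.0887 to 0.174). Without line 1 all 11 passed (limma adjusted p from 6.28e-05 to 0.0287). The share of all gene names that passed in these fits was not counted. In the probe fits of the same settings, in this order, limma called 17.8%, 23.04%, 21.96% and 47.0% of all autosomal probes.

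The 6 probes printed as 5 spots show how far a single Olfr value can be read within an array. All 5 spots of Olfr736 were below 0 in each line, from -0.65 to -0.54 in line 1, -0.60 to -0.33 in line 2 and -0.62 to -0.49 in line 3. All spots of Olfr703 were above 0, from 0.17 to 0.46, from 0.25 to 0.34 and from 0.14 to 0.47. Olfr1164 was not well above background in either channel on any array, and its spots covered 0 on every array, from -0.43 to 0.60 in line 2, with an SD of 0.36, 0.40 and 0.32 in lines 1, 2 and 3. The spots of Olfr736 had an SD of 0.042, 0.10 and 0.054. Repeat spots show error within an array only, and a property of the probe that shifts its ratio on every spot would not appear in them.

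**Figure D4:**
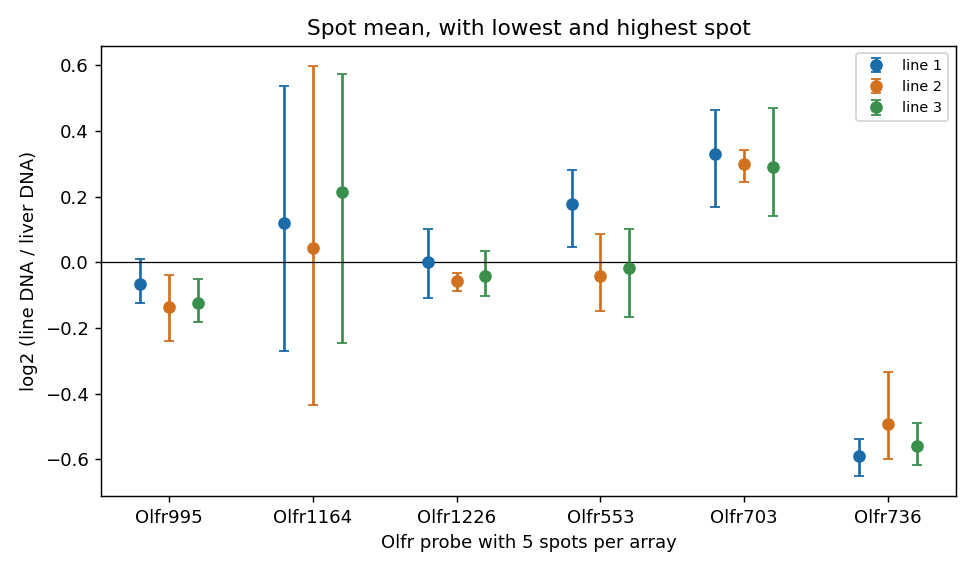
Log2 ratio (vertical axis) of the 6 Olfr probes with 5 spots on each array, with a point for the mean of the spots in each line and whiskers from the lowest to the highest spot. Olfr736 lies below 0 and Olfr703 above 0 on every spot, and Olfr1164 spans 0 in all 3 lines.

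Of the 6 names with more than 1 probe, 4 had probes with means on both sides of 0. The 3 probes of the pseudogene Olfr1300-ps1, within 16666 bases, had means of 0.089, -0.48 and -0.69 from the first to the last. The lowest of all 78 was the last of them, at -1.01, -0.65 and -0.42 in lines 1, 2 and 3. The probes of Olfr947-ps1 had means of -0.46 and 0.028, those of Olfr872 of -0.20 and 0.21, and the 7 probes of Olfr56 ran from -0.26 to 0.39. The 2 probes of Olfr27 had means of -0.35 and -0.24 and those of Olfr44 of -0.018 and -0.15, each pair on the same side. Since a gene is mostly read through 1 probe here, a gene's value is that of the probe. The 7 probes whose names end in -ps or -ps with a number were lower than the other 71 Olfr probes by -0.22, -0.24 and -0.21 in lines 1, 2 and 3 (mean -0.22 ± 0.019, SD, n = 3; exact sign flip p = 0.25, 2-sided). Of the 7, 3 are those of Olfr1300-ps1, and RefSeq lists Olfr367-ps as protein coding.

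Genes of olfactory signal transduction, of receptor transport and choice and of the trace amine receptors, a second family of receptors of the nose, made up a list of 34 genes. Of these, 14 had a probe, none of them a trace amine receptor. limma called 0 above and 1 below 0, where 14.1% of all gene names were called above and 8.91% below. An unadjusted p under 0.05 was reached by 1 above 0, the G protein subunit gene Gnb1, and 2 below, against 24.2% and 16.7% of all gene names. Cngb1, a subunit of the cyclic nucleotide-gated channel, was at -0.63, -0.24 and -0.38 in lines 1, 2 and 3 over 2 probes (limma adjusted p = 0.0274). It was not called after normexp (mean -0.083, limma adjusted p = 0.384), after loess (mean -0.098) or in the authors' value table (mean -0.16). Gnal, with 15 probes, was at -0.034, -0.087 and -0.14, and Adcy3, the adenylyl cyclase, at 0.094, 0.033 and -0.25 (limma adjusted p = 0.238 and 0.717). The median of the 14 was -0.059.

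Read by channel, the median level of the Olfr probes relative to the autosomal median was -0.13, -0.13 and -0.061 in Cy5, the DNA of lines 1, 2 and 3, and -0.012, 0.012 and 0.027 in Cy3, the liver DNA. For the probes inside the spans it was -0.24, -0.30 and -0.26 in Cy5 and -0.19, -0.17 and -0.19 in Cy3. Both sets were thus dimmer in Cy5 than in Cy3 on every array. The brightness of a probe also depends on its sequence, so these levels are read only against the other channel of the same probes.

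Each channel alone was then compared between the animal numbers, where a difference in the DNA of the animals themselves would appear in the line and in its liver and cancel in the ratio. There is 1 animal number on each side, so no test was made. Line 1 is also 1 array, and both channels are read from the same spots. A weak spot on that array would likewise shift both channels and cancel in the ratio. The rule below cannot tell this from a difference between the animals. Counted were probes that differed by at least 0.5 on the log2 scale, with 1 sign, between line 1 and each of lines 2 and 3 in both channels. Of the 78 Olfr probes, 2 did so, both lower in line 1, which is 2.56%, where 0.626% of all autosomal probes did, 0.289% higher and 0.336% lower. Inside the spans, 10 of 821 probes did so (1.22%), 7 higher and 3 lower in line 1, and within 1 Mb of the clusters 22 of 3751 (0.587%). None of the 5 large clusters differed by 0.3 in both channels on average, as was so for 0% of the 2393 regions. The nearest to it was Olfr995 to Olfr1080, at -0.31 in Cy5 and -0.20 in Cy3, and without its dim probe of Olfr1033 the other 4 averaged -0.050 and 0.093.

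Olfr183 on chromosome 16 was at -0.76, -0.22 and -0.14 in Cy5 and at -0.80, -0.16 and -0.046 in Cy3 on the arrays of lines 1, 2 and 3. Line 1 thus differed from the mean of the others by -0.58 in Cy5 and -0.69 in Cy3, while the ratio of the probe was 0.048, -0.050 and -0.070. The probes next to it, 9.65 and 15.1 kb away, differed by -0.13 and -0.11 in Cy5 and by -0.15 and 0.16 in Cy3. Olfr1033 on chromosome 2 was at -4.65, -3.36 and -3.22 in Cy5 and -4.50, -3.05 and -3.20 in Cy3. It was not well above background on any array in either channel, so no size can be given for its difference. Its neighbours at 16.9 and 15.6 kb differed by 0.060 and 0.18 in Cy5 and by -0.20 and 0.21 in Cy3. After normexp the count of Olfr probes that met the rule was 0, so Olfr183 missed it as well. The probe of Olfr183 was well above background in both channels on every array.

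Of the 10 probes inside the spans, 5 lay in a stretch of 22 probes within the class I cluster (chr7:111393528-111656621), chosen after its values were seen. A probe of Trim34a, of a family of antiviral ubiquitin ligases that lies among these receptors, was higher in line 1 by 0.70 in Cy5 and 0.71 in Cy3. Of the 3 probes in the stretch named ENSMUST00000106854, 2 met the rule and were higher in line 1 by 2.13 and 1.54 in Cy5 and by 2.24 and 1.69 in Cy3, the largest positive differences among the Olfr probes and the probes inside the spans. The probe of that name between them differed by 0.53 in Cy5 and 0.17 in Cy3. An unnamed probe in the stretch differed by -0.69 in Cy5 and -1.15 in Cy3. The last probe of the stretch was well above background in both channels for lines 2 and 3 and not for line 1. The faintest probe well above background on the line 1 array was therefore set in place of line 1. The mean of lines 2 and 3 was 1.49-fold that level in Cy5 and 1.02-fold in Cy3. These folds are not strict lower limits. Over all 22 probes the median difference was 0.082 in Cy5 and 0.15 in Cy3, and the mean ratios were -0.094, -0.0081 and -0.14 in lines 1, 2 and 3. Of the 5 probes, 3 were thus higher and 2 lower in line 1, and the rule that chose them requires the same sign in both channels.

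**Figure D5:**
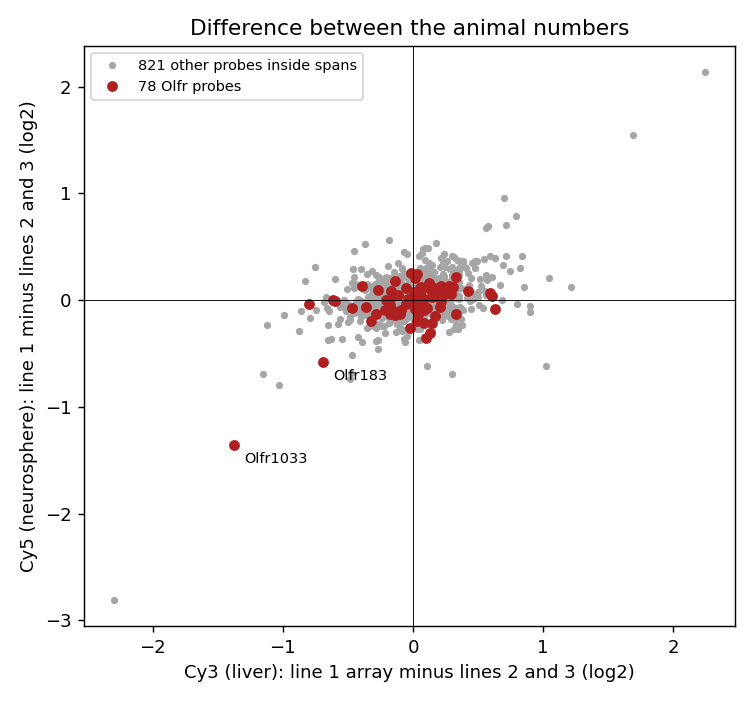
Difference between the array of line 1 and the mean of those of lines 2 and 3 in the liver channel (Cy3, horizontal axis) and in the neurosphere channel (Cy5, vertical axis), both in log2 units, for the 78 Olfr probes (red) and the 821 other probes inside the cluster spans (grey). Most points lie near 0, Olfr183 and Olfr1033 are low in both channels, and the grey points at the far upper right are 2 of the 3 probes named ENSMUST00000106854.

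Lines 2 and 3 gave the most similar Olfr values. Across the 78 probes, which share their arrays, slide and dye orientation, Pearson's r was 0.64 for line 1 with line 2, 0.65 for line 1 with line 3 and 0.82 for line 2 with line 3. Across the other autosomal probes it was 0.70, 0.64 and 0.82 for the same pairs. These are descriptions across probes, which are not independent replicates. The differences between lines 2 and 3 had an SD of 0.15 over Olfr probes and those between lines 1 and 2 one of 0.28. Across Olfr probes the mean ratio had an r of 0.019 with the percent of G and C bases. A run of 16 bases in common with another probe of the array was present in 42.3% of Olfr probes and in 44.3% of the other autosomal probes, and the longest run between probes of different Olfr names was 13 bases. These runs compare probes of the array only and say nothing of other places in the genome that a probe could bind.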

How the data were processed

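Genomic DNA of 3 neurosphere lines (Cy5) and of mouse liver (Cy3) was hybridised on 3 two-colour arrays. The deposited spot intensity values were made with Agilent Feature Extraction 10.7.3.1, which subtracted background, detrended the signals and normalised the dyes linearly, per the file headers. The deposited value table holds log10 ratios, with column medians of 0.000435, -0.00146 and -0.00271. It correlated with the scanner ratios at 0.867, 0.844 and 0.884, but how it was centred is not given in the sources. From the deposited intensities, log2 ratios were computed, control spots (6575 of 180880) and outlier-marked spots were left out, spots of a probe were averaged (170305 probes), and each array was centred on its autosomal median.

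Probes, gene means and regions (clusters of at least 5 Olfr probes, or spans with at least 20 other probes, with 1 Mb bins) were tested against 0 with limma 3.58.1 (lmFit, eBayes, Benjamini-Hochberg over all features, threshold 0.05) in R 4.3.3, checked on simulated data. Differences of sets were tested by an exact sign flip over the 3 lines. Other steps ran in Python 3.11.15 (matplotlib 3.10.9, scipy 1.17.1, pandas 2.3.3, numpy 2.4.6). RefSeq's GRCm38.p6 table served for names, kinds and lengths of genes.

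The members and lists were chosen with earlier results of these data known. The rule for names took large clusters (highest, lowest, the largest, the one at beta-globin), 11 receptors whatever their value, up to 5 genes above and 5 below 0 past limma whose lines had the same sign (at most 1 per cluster), genes differing by 0.5 in both channels, and signalling genes past limma. Alternatives were normexp (offset 50), loess, the value table, a filter on dim probes, medians, other comparison probes, other cluster gaps and flanks, and leaving out each line.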

Additional observations from a re-analysis of the deposited data

How the results depend on the processing

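Each ratio already pairs a line with liver DNA on the same array. The 3 lines form a single group, so no pairing between groups was possible. The differences of Olfr probes, of probes inside the spans and of clusters against flanks stayed below 0 under every alternative run, and the causes of the moves below were not tested. Olfr probes differed from other autosomal probes by -0.12 after loess, and the probes inside the spans by -0.14 after normexp and -0.14 after loess. The 26 Olfr probes called by limma became 16 in the authors' value table, 17 with lines 2 and 3 averaged as 1 animal, and 11 to 39 with a line left out. The share of all autosomal probes called moved the same way. From 33.7% it became 21.3% in the authors' value table, 21.96% with lines 2 and 3 averaged, and 17.8% to 47.0% with a line left out. The 22 below 0 became 10 to 28 with a line left out. The 4 above 0 became 8 after normexp, 1 after loess, 1 in the authors' value table, 2 with lines 2 and 3 averaged, and 1 to 11 with a line left out. The 2 clusters called became 2 to 4 with a line left out, and 1 with probes well above background only, where Olfr995 to Olfr1080 was no longer tested. The count was 0 with clusters of at least 10 probes, but that minimum leaves out both called clusters, which have 9 and 5 probes. The 10 spans called, a comparison chosen after seeing the data, became 6 to 10 with a line left out and 8 with lines 2 and 3 averaged. The share of all spans and bins called in those fits was not counted. The 2 Olfr probes that differ between animals in both channels became 0 after normexp, 1 with probes well above background and 1 at a threshold of 1, and the 0 clusters that do became 1 at a threshold of 0.2, Olfr995 to Olfr1080, through its dim probe of Olfr1033. Comparisons matched on G and C number, without Olfr56 and with clusters weighted equally were also chosen after seeing the data. With 1 probe for most genes, signal over background and the spread between probes limit what a single receptor gene can show.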
